A study of Mus musculus with 12 samples.

Results

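The mRNAs of the CDK inhibitor genes were measured in mouse splenic B cells that had been activated with lipopolysaccharide and then given DNA damage. Members were taken by name: the Cip/Kip family (Cdkn1a, Cdkn1b and Cdkn1c) and the INK4 family (Cdkn2a, Cdkn2b, Cdkn2c and Cdkn2d), which make up 7 of the 29486 genes in the table. Cyclin-dependent kinases (CDKs) drive the cell cycle when bound to cyclins. Cip/Kip proteins bind many cyclin-CDK complexes, CDK2 complexes above all, whereas INK4 proteins bind CDK4 and CDK6 and keep D-type cyclins away from them. The product of Cdkn1a, p21, is a classical target of the transcription factor p53, which the kinase ATM helps to activate after a DNA double-strand break, and p27, the product of Cdkn1b, is known for holding resting lymphocytes out of the cell cycle.

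B cells were isolated from spleens of C57BL/6Babr mice of 8 to 12 weeks of age, and 12 libraries of polyadenylated RNA were sequenced, 4 per condition. In the condition called LPS, cells were cultured with lipopolysaccharide at 10 µg/ml for 48 h. In LE, the same 48 h of lipopolysaccharide were followed by etoposide, a topoisomerase II inhibitor that leaves double-strand breaks, at 20 µM for 4 h. In LEKU, 47 h of lipopolysaccharide were followed by the ATM inhibitor KU55933 at 10 µM for 1 h and then by etoposide at 20 µM for 4 h. All 3 conditions therefore hold activated B cells, no cells received KU55933 without etoposide, and whether the LPS cells stayed in culture for the further 4 h is not stated in the labels. Each condition carried sequencing indexes that no other condition carried, so condition and index cannot be told apart.

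Each deposited value was the condition's fitted mean for a gene multiplied by the size factor of the library, so the libraries of a condition differ by sequencing depth alone and hold no spread between replicates. No test between conditions could be made for this reason, and no p-value is given. Differences are log2 ratios of the scaled level, which is the deposited value divided by the size factor. The 95% intervals are exact Clopper-Pearson limits on the counts behind both levels and cover counting error only. A difference of at least 2-fold was counted, over the 15507 genes with a value of at least 10 in at least 4 libraries. In bulk RNA, fewer cells of a kind and less RNA per cell cannot be told apart.

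Summed values per library lay, in units of 1000000, between 20.7 and 23.9 in LPS, between 22.5 and 30.6 in LE, and between 20.4 and 25.1 in LEKU. All 6 B cell markers were present in every condition, with a summed scaled level of 133556 in LPS, 73114 in LE and 82519 in LEKU. Of 6 T cell markers only Trac passed the filter on low values, and their summed level lay between 11.1 and 22.7. The 6 macrophage markers summed to 417 in LPS, 468 in LE and 431 in LEKU, and the 5 red blood cell markers to 218, 184 and 115. The part of these other cells, and of the lower B cell markers in LE and LEKU, in the differences below was not tested.

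The stretches in front of the start sites of Cdkn1a, Cdkn1b, Cdkn2b, Cdkn2c and Cdkn2d are printed because the results with etoposide turn on these genes and Cdkn1a is known as a p53 target. Each covers the 100 bases upstream of a RefSeq start on build GRCm38.p6, read 5′ to 3′ on the strand of the gene. Capitals mark a match, on either strand, to one of the motifs that were searched in the 250 bases before each start: the full p53 site, the box known as CCAAT, the GC box with the letters GGGCGG, and the element spelled TATAA.
Cdkn1a, first start, chr17:29090879-29090978, plus strand: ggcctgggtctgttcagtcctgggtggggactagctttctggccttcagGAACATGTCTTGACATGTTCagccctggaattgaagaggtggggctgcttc
Cdkn1a, other start, chr17:29093669-29093768, plus strand: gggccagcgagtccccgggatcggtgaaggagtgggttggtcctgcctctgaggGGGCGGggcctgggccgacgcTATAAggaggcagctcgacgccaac
Cdkn1b, chr6:134920301-134920400, plus strand: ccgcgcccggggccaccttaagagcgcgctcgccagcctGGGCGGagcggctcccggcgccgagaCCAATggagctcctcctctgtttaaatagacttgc
Cdkn2b, chr4:89311033-89311132, minus strand: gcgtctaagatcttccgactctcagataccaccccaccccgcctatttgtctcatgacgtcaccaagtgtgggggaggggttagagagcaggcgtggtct
Cdkn2c, first start, chr4:109666757-109666856, minus strand: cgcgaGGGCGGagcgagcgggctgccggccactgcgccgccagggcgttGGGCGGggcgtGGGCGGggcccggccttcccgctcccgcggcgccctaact
Cdkn2d, chr9:21291210-21291309, minus strand: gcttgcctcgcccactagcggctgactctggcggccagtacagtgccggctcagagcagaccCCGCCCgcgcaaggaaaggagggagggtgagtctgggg
In front of the first Cdkn1a start the capitals are a full p53 site, 20 bases long, at positions -51 to -32 from that start. It has 1 letter off, the most that the search allowed. Full sites under this rule were found in 25 of 32851 windows, or 0.0761%. A further match to the 10-letter unit, of which a full site has a pair, lay at -73 to -64 from the first Cdkn1a start. The other Cdkn1a start lies 2790 bp downstream and has a TATAA at -25 to -21 and a GC box at -46 to -41. TATAA occurred in 22.8% of all windows, the GC box in 32.7% and CCAAT in 33.8%.

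Of the 25 genes with a full p53 site in a window, 8 passed the filter on low values. The levels of 3 of them, Cdkn1a, Ccng1 and Rps27l, were at least 2-fold higher in LE than in LPS, and that of 1, Bank1, was at least 2-fold lower, where 14.7% and 6.16% of all genes were. The search was prompted by Cdkn1a, so its place among the 3 is no separate finding. In front of Cdkn2d a single copy of the 10-letter unit, of which a full site has a pair, was found at -102 to -93, and 7.13% of windows held such a unit. Cdkn2c had 3 GC boxes in front of its first start, and Cdkn2d had 3 in its window. In the Cdkn2b window the CHR motif (TTTGAA, in 16.0% of windows) was the only match, at -161 to -156 on the opposite strand. The E-box CACGTG (6.02% of windows) and the FOXO motif GTAAACA (3.17%) had no match in the windows of these genes, of which 6 of 7 were found in the promoter table. Cdkn1c is named only.

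Etoposide treatment was accompanied by higher levels of Cdkn1a, Cdkn2b, Cdkn2c and Cdkn1c and by lower levels of Cdkn2d, Cdkn1b and Cdkn2a. Cdkn1a stood far above the others with a level 32.7-fold higher in LE than in LPS. At least 2-fold differences were counted for 5 of the 7 genes, where 20.8% of all genes passed. Of these, 4 were higher, against 14.7% of all genes, and 1 was lower, against 6.16%. Cdkn1c passed the filter on low values through its LE libraries, so that its place among the 4 carries no weight. After quantile normalization the counts over all genes were 1643 higher and 1425 lower, in place of 2273 and 955.

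**Figure D1:**
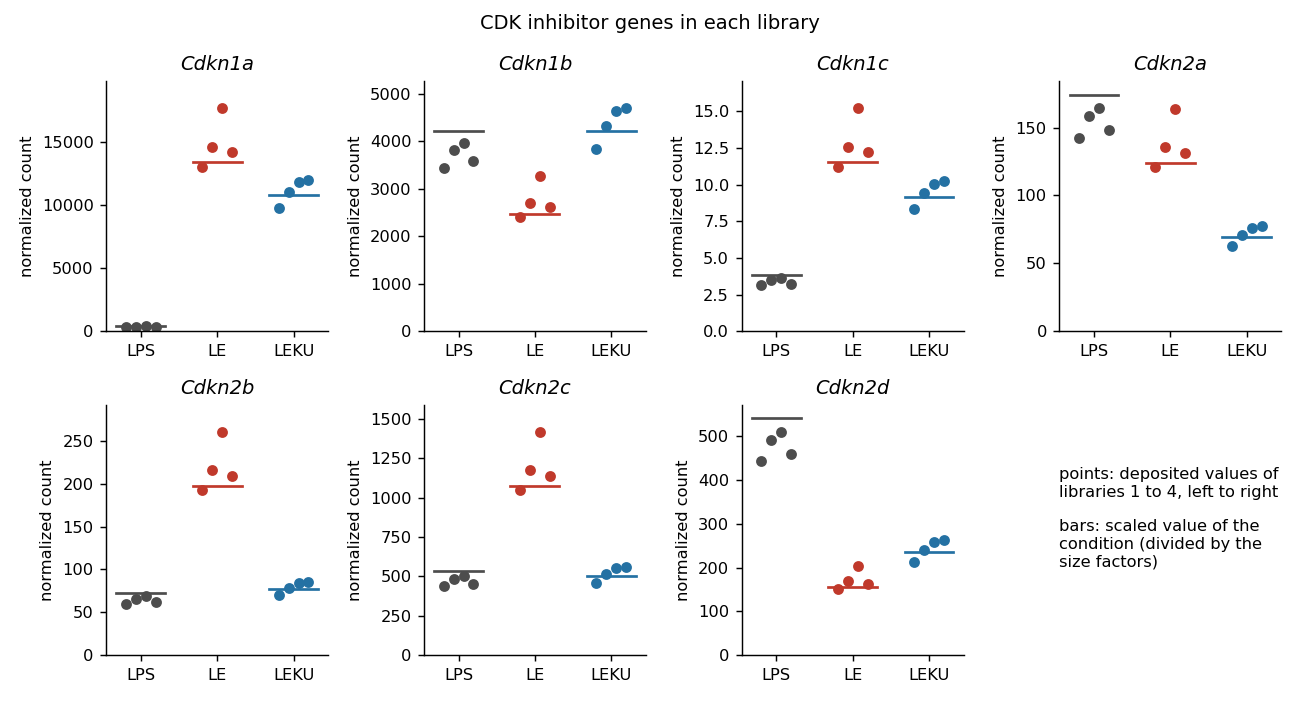
Each panel shows 1 CDK inhibitor gene. Points are the deposited values of the 12 libraries (y axis, normalized counts, linear scale from 0) in LPS, LE and LEKU, libraries 1 to 4 from left to right, and horizontal lines are the scaled level of the condition. Cdkn1a goes from 411 in LPS to 13440 in LE, and the points within a condition differ only by size factor.

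Cdkn1a encodes p21, an inhibitor of cyclin-CDK2 complexes that also binds the replication clamp PCNA. It lies on chromosome 17 (29090976 to 29100727, plus strand, GRCm38) and has 5 annotated transcripts. Its deposited values were 337, 373, 388 and 350 in the 4 LPS libraries, 13068, 14646, 17739 and 14199 in the LE libraries, and 9786, 11036, 11823 and 12018 in the LEKU libraries. Within a condition these values differ by size factor alone. Overlap or separation of the libraries therefore tells nothing about replicates, here or for the genes below.

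The log2 ratio of LE to LPS was 5.03 for Cdkn1a (95% counting interval 4.95 to 5.11), and 45 of the 15507 genes had a larger ratio. Between LEKU and LE the log2 ratio was -0.32 (-0.34 to -0.30), a small step down beside the first. The level in LEKU remained 26.2-fold above that in LPS, a log2 ratio of 4.71 (4.64 to 4.79), and 11 genes had a larger one. A gene model on the opposite strand, AC167363.2, shares 273 exon bases with Cdkn1a, and the strand setting of the counting is not given in the sources used here.

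Cdkn1b encodes p27, an inhibitor of cyclin E-CDK2 and cyclin A-CDK2 that is destroyed as cells enter S phase. It lies on chromosome 6 (134920401 to 134925513, plus strand). The deposited values were 3440, 3817, 3971 and 3578 in LPS, 2405, 2696, 3265 and 2614 in LE, and 3831, 4320, 4628 and 4704 in LEKU. The scaled level was lowest in LE.

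Cdkn1b ran opposite to Cdkn1a in both steps. Its log2 ratio was -0.77 between LE and LPS (-0.80 to -0.73), less than 2-fold, and 0.77 between LEKU and LE (0.74 to 0.80). Of the 15507 genes, 621 had a larger ratio of LEKU to LE. The scaled levels of 4207 in LPS and 4220 in LEKU gave a log2 ratio of 0.0046 (-0.027 to 0.036), which was 0.18 with library totals as the scaling and 0.28 after quantile normalization. No direction is given for that pair.

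Cdkn1c, the imprinted gene for p57, on chromosome 7 (143458339 to 143461050, minus strand), was hardly detected. Its deposited values were between 3.12 and 3.60 in LPS, between 11.2 and 15.2 in LE and between 8.33 and 10.2 in LEKU. The log2 ratio of LE to LPS was 1.60 with a wide interval of 0.74 to 2.64, and it was 0.31 after quantile normalization. For LEKU against LE the interval, -0.97 to 0.31, spanned 0. The antisense gene Gm44732 shares 625 exon bases with Cdkn1c.

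**Figure D2:**
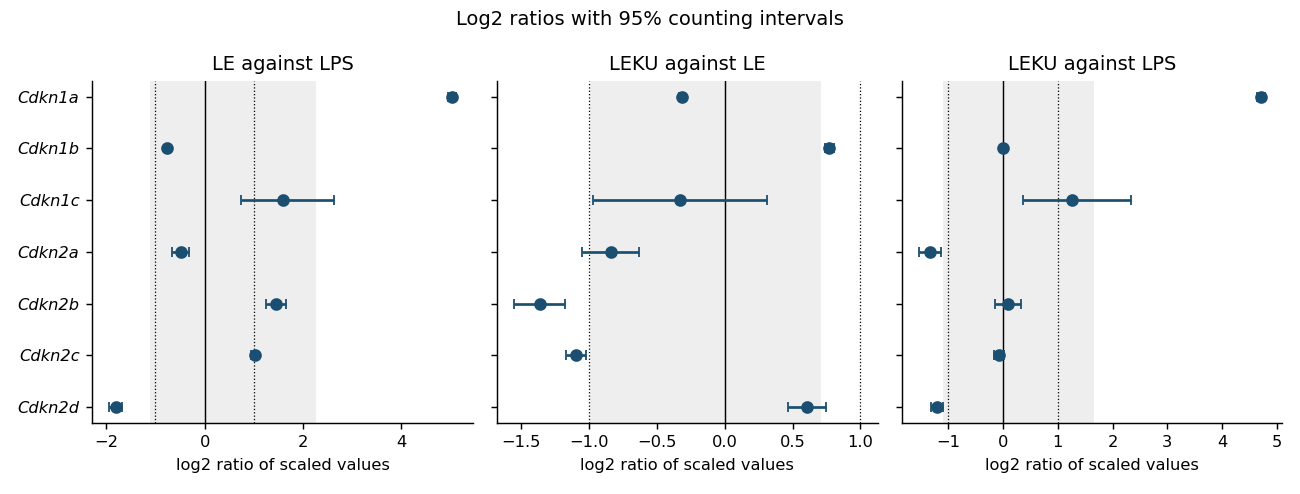
The log2 ratio of scaled levels (x axis) is drawn for each CDK inhibitor gene (y axis) in LE against LPS, LEKU against LE and LEKU against LPS. Bars are 95% exact counting intervals and do not cover the spread between replicates, dotted lines stand at 2-fold, and the grey band spans the 5th to the 95th percentile of all 15507 genes. Cdkn1a is at 5.03, -0.32 and 4.71, while Cdkn2b and Cdkn2c are above 1 in the first panel and below -1 in the second.

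Among the INK4 genes, Cdkn2b and Cdkn2c shared a pattern in which the LE level was high and the LEKU level was near that of LPS. Cdkn2b encodes p15, known as an effector of TGF-beta arrest. It lies on chromosome 4 (89306299 to 89311039, minus strand) with 1 annotated transcript. Its deposited values were 59.4, 65.9, 68.5 and 61.7 in LPS, 193, 216, 261 and 209 in LE, and 70.0, 78.9, 84.5 and 85.9 in LEKU. The scaled level was highest in LE.

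The Cdkn2b level was 2.73-fold higher in LE than in LPS, a log2 ratio of 1.45 (1.25 to 1.66), and 2.57-fold lower in LEKU than in LE, a log2 ratio of -1.36 (-1.55 to -1.18). Only 375 genes had a lower ratio of LEKU to LE. Scaled levels of 72.6 in LPS and 77.1 in LEKU gave a log2 ratio of 0.087 (-0.15 to 0.33), whose sign turned to -0.16 with quantile normalization, so no direction is given for that pair.

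Cdkn2c encodes p18, an INK4 protein with known roles in lymphocytes, where it limits the cycling of plasma cell precursors. It lies on chromosome 4 (109660876 to 109667189, minus strand). Its deposited values were 436, 483, 503 and 453 in LPS, 1047, 1174, 1421 and 1138 in LE, and 458, 516, 553 and 562 in LEKU. Here too the scaled level was highest in LE.

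The LE level of Cdkn2c was 2.02-fold that of LPS, a log2 ratio of 1.02 (0.94 to 1.09), at the edge of the 2-fold count. It stayed above 2-fold under every other scaling and pseudocount tried. In LEKU the level was 2.14-fold lower than in LE, a log2 ratio of -1.10 (-1.17 to -1.02), with 630 genes lower. The levels in LPS (533) and LEKU (504) gave a log2 ratio of -0.080 (-0.17 to 0.011), and this turned to 0.094 with library totals as the scaling.

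Cdkn2d, which encodes the INK4 protein p19, lies on chromosome 9 (21288410 to 21291407, minus strand) and moved the other way. The deposited values were 443, 491, 511 and 461 in LPS, 150, 168, 204 and 163 in LE, and 214, 241, 258 and 262 in LEKU. The scaled level was highest in LPS and lowest in LE. The LE level was 3.50-fold lower than that of LPS, a log2 ratio of -1.81 (-1.94 to -1.68), and 109 genes had a lower one.

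In LEKU the Cdkn2d level was 1.52-fold higher than in LE, a log2 ratio of 0.61 (0.46 to 0.75), yet it remained 2.30-fold lower than in LPS, a log2 ratio of -1.20 (-1.32 to -1.09). Cdkn2d and Cdkn1b were thus the 2 genes of the 7 with a lower level in LE than in LPS and a higher level in LEKU than in LE. Both kept these signs under all 22 alternatives tried. Of these, only the other scalings and the pseudocounts could move a ratio much, and the rest left it nearly unchanged by construction. A pseudocount cannot turn a sign, and scalings other than quantile normalization move all ratios of a comparison by the same amount.

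Cdkn2a, on chromosome 4 (89274471 to 89294653, minus strand), encodes p16 and, from another start and reading frame, p19ARF, which restrains Mdm2. A count per gene cannot separate these products. The deposited values were 143, 158, 165 and 148 in LPS, 121, 135, 164 and 131 in LE, and 63.0, 71.0, 76.1 and 77.3 in LEKU. The scaled level was highest in LPS and lowest in LEKU.

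The log2 ratio of Cdkn2a was -0.49 for LE against LPS (-0.66 to -0.32) and -0.84 for LEKU against LE (-1.05 to -0.63), neither reaching 2-fold. For LEKU against LPS it was -1.33 (-1.54 to -1.13), or 2.51-fold lower. Cdkn2a was therefore the 1 gene of the 7 whose level was lower in both steps. With size factors fitted to the authors' mean over libraries, the mean of Cdkn2a was 122 against the authors' 127, a gap of 3.98% that was the largest among the 7. Cdkn2a and Cdkn2b lie 11645 bp apart on the same strand, and their ratios of LE to LPS had opposite signs.

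With KU55933 before etoposide, at least 2-fold differences from LE were counted for 2 of the 7 genes, against 6.81% of all genes. Both, Cdkn2b and Cdkn2c, were lower, against 4.88% of all genes, and none was higher, against 1.93%. Over all genes 299 were higher and 757 lower, and quantile normalization gave 469 and 647. Against LPS, the LEKU level passed 2-fold for 4 of the 7 genes, where 18.0% of all genes did. Cdkn1a and Cdkn1c were higher, against 11.9% of all genes, and Cdkn2a and Cdkn2d were lower, against 6.07%. The count of Cdkn1c again carries no weight, since it passed the filter on low values through its LE libraries and its log2 ratio of LEKU to LPS, 1.27, was 0.19 after quantile normalization. Over all genes 1850 were higher and 941 lower, against 2314 and 630 with library totals and 1159 and 1104 after quantile normalization. The comparisons share the same libraries (LE enters 2 of them, and so do LPS and LEKU), so their values are set side by side and are not separate evidence.

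**Figure D3:**
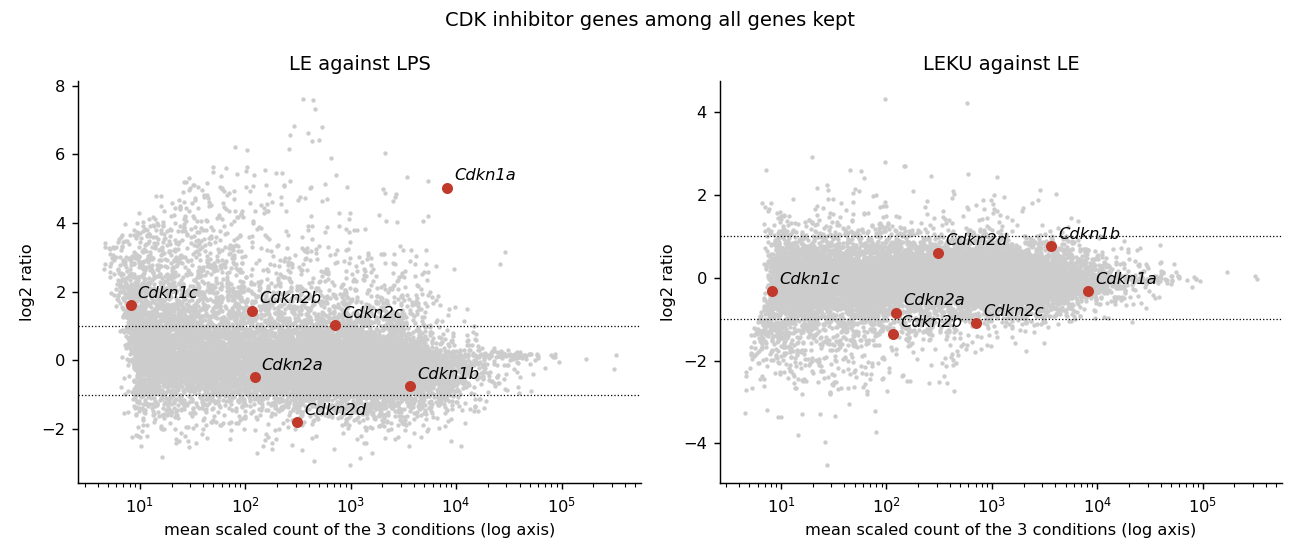
The log2 ratio of LE to LPS (y axis, first panel) and of LEKU to LE (y axis, other panel) is plotted against the mean scaled level of the 3 conditions (x axis, log scale) for 15507 genes (grey), with the 7 CDK inhibitor genes in red and dotted lines at 2-fold. Cdkn1a stands above the cloud at its level in the first panel, at 5.03, and within it in the other, at -0.32, where Cdkn2b (-1.36) and Cdkn2c (-1.10) lie below the dotted line.

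Levels of different genes were compared per kilobase of exon, on the scaled level. In LPS the order was Cdkn1b (924 per kb), Cdkn2d (344), Cdkn2c (198), Cdkn2a (149), Cdkn1a (116), Cdkn2b (52.2) and Cdkn1c (1.87). In LE Cdkn1a came first with 3783 per kb, followed by Cdkn1b (544), Cdkn2c (401), Cdkn2b (143), Cdkn2a (106), Cdkn2d (98.2) and Cdkn1c (5.66). In LEKU it was again first with 3034, before Cdkn1b (927), Cdkn2c (188), Cdkn2d (150), Cdkn2a (59.2), Cdkn2b (55.5) and Cdkn1c (4.50).

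Cdkn1a thus moved from the fifth place in LPS to the first in both other conditions, and Cdkn2d from the second to the sixth in LE. In the absence of a replicate spread, neighbours in the order cannot be tested. Those closest were Cdkn2a and Cdkn2d in LE, 1.08-fold apart, and Cdkn2a and Cdkn2b in LEKU, 1.07-fold apart. With the longest transcript as the length, Cdkn1a took place 4 in LPS.

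Summed over the 3 Cip/Kip genes, the level was 1042 per kb in LPS, 4332 in LE and 3966 in LEKU. Over the 4 INK4 genes it was 743, 748 and 452. The INK4 sums of LPS and LE were thus 1.01-fold apart, although within the family Cdkn2c went from 26.7% to 53.6% of the sum and Cdkn2d from 46.3% to 13.1%. In LEKU Cdkn2c held 41.5% and Cdkn2d 33.1% of a sum that was 0.604 of that in LE. Of the sum over all 7 genes, Cdkn1a made up 6.49% in LPS, 74.5% in LE and 68.7% in LEKU, and Cdkn1b made up 51.8%, 10.7% and 21.0%.

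**Figure D4:**
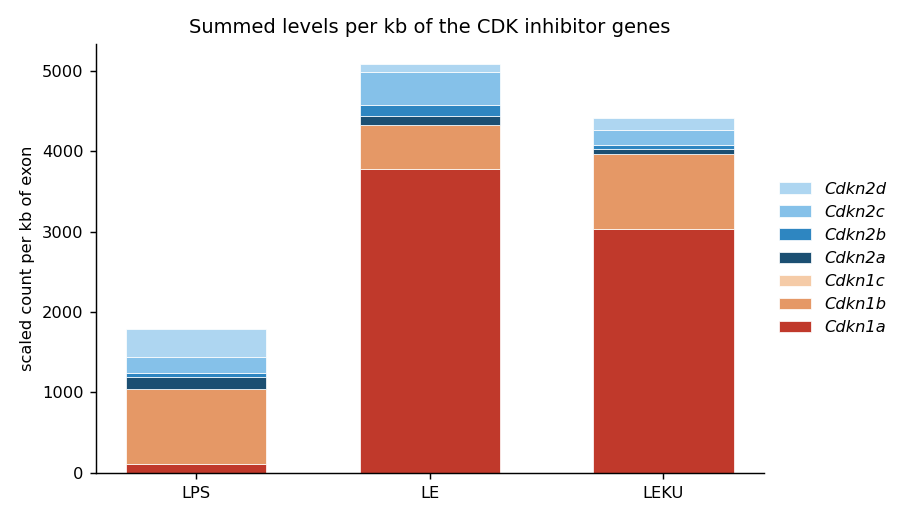
Stacked bars, from 0, give the scaled level per kilobase of exon (y axis) of the 7 CDK inhibitor genes in LPS, LE and LEKU, with the Cip/Kip genes in reds and the INK4 genes in blues. Cdkn1a takes 6.49% of the bar in LPS, 74.5% in LE and 68.7% in LEKU, and Cdkn1c is too low to be seen.

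The genes whose pattern was most like each CDK inhibitor gene were found by Euclidean distance over the log2 ratios LE/LPS and LEKU/LPS, that is over 3 conditions, among genes with a mean level of at least 100. For Cdkn1a they were Fam212b (distance 0.13), Phlda3 (0.16), which encodes an inhibitor of Akt, and Plk2 (0.28), a polo-like kinase. Only 2 genes lay within 0.2 of Cdkn1a. For Cdkn2b they were Sh3tc1 (0.049), the piRNA-binding gene Piwil2 (0.17) and the kinesin gene Kif18b (0.17), with 5 genes within 0.2.

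Around Cdkn1b, in contrast, 132 genes lay within 0.2, and the nearest were H2-M3 (0.0077), Serp1 (0.014) and Gm16026 (0.021). The nearest to Cdkn2c were Utp20 (0.063), Lxn (0.093) and St3gal4 (0.094), with 16 within 0.2. Those nearest to Cdkn2d were the interleukin 9 receptor gene Il9r (0.059), Vangl2 (0.12) and Ighg2b (0.13), the constant region of the IgG2b heavy chain, with 11 within 0.2. For Cdkn2a they were Etohi1 (0.029), Fkbp11 (0.074) and Tnip3 (0.096), with 22, and for Cdkn1c Klhl11 (0.037), Cd81 (0.041) and Tbx6 (0.041), with 52. The counting interval of Cdkn1c for LE against LPS, 0.74 to 2.64, was far wider than these distances, so its neighbours carry no weight. None of the 7 genes was among the nearest 3 of another.

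The kinases that these inhibitors bind, with the CDK-activating kinase, had lower levels in LE than in LPS for all 7 genes of the list, and 2 were at least 2-fold lower, where 6.16% of all genes were. Cdk1, the mitotic kinase, went from 2510 in LPS to 842 in LE and 529 in LEKU, log2 ratios of -1.58 for LE against LPS and -0.67 for LEKU against LE. Cdk6, a target of the INK4 proteins, went from 684 to 314 and 170 (-1.12 and -0.89). Ccnh, the cyclin of the activating kinase, was at 1014, 551 and 518 and did not reach 2-fold. The median log2 ratio of the list was -0.69 between LE and LPS, against -0.015 over all genes. No gene of the list passed 2-fold between LEKU and LE, where 6.81% of all genes did. With library totals as the scaling Cdk1 alone passed between LE and LPS, and all 7 signs were kept under the 4 other scalings.

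Of 8 cyclin genes, 5 were at least 2-fold lower in LE than in LPS and 1 was higher, where 6.16% and 14.7% of all genes were. The median log2 ratio was -1.04. With library totals 3 were lower, where 699 of all 15507 genes were. After quantile normalization 4 were lower, where 1425 of all genes were. The mitotic cyclins led: Ccnb1 was at 3890 in LPS and 1051 in LE (-1.89) and Ccnb2 at 2181 and 688 (-1.66). The higher one was Ccnd1, at the low levels of 15.2 and 41.4 (1.44), and it no longer passed after quantile normalization. Ccne2, whose product binds CDK2 at entry into S phase, had the largest step between LE and LEKU, from 837 to 424 (-0.98), before Ccna2, from 2314 to 1455 (-0.67), and neither reached 2-fold. With TMM factors and after quantile normalization 1 cyclin gene, Ccne2, did so narrowly. Of all 15507 genes, 784 and 647 were at least 2-fold lower in LEKU than in LE under these scalings.

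Downstream of the kinases, 2 of 11 genes of the Rb and E2F families were at least 2-fold higher in LE than in LPS and none was lower, with a median of -0.15, a share of higher genes close to the 14.7% of all genes. Rbl2, which encodes the pocket protein p130, was at 1895 in LPS, 4097 in LE and 3189 in LEKU (1.11 for LE against LPS). E2f7, a repressor of E2F targets, was at 294, 625 and 250, with log2 ratios of 1.09 and, for LEKU against LE, -1.32. It was the 1 gene of this list past 2-fold in the second step, where 6.81% of all genes passed. E2f8, its close relative, was at 1557, 917 and 556 (-0.76 and -0.72).

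Of 12 genes for the turnover of Cip/Kip proteins, 1 passed 2-fold between LE and LPS, where 20.8% of all genes did. None passed between LEKU and LE, where 6.81% did, and the medians were -0.084 and -0.16. The first median turned to 0.047 with library totals and to 0.0074 after quantile normalization. That 1 was Ubac1, a subunit of the KPC ligase that acts on p27, at 1004 in LPS, 2784 in LE and 1682 in LEKU (1.47 and -0.73). Skp2, which recognises p27 for degradation, was at 512, 502 and 339, and its cofactor Cks1b was at 1972, 1244 and 1362. The scaffold Cul1 was at 3678, 2535 and 2304.

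On the route from ATM to p53, 2 of 7 genes were at least 2-fold higher in LE than in LPS, with a median of -0.10 that turned to 0.027 with library totals and to 0.15 after quantile normalization, when 3 were higher. Over all genes 14.7% were higher, and after quantile normalization 1643 of 15507 were. Mdm2, the ligase that degrades p53 and itself a p53 target, was at 2626 in LPS, 16655 in LE and 9505 in LEKU (2.67 and -0.81). Chek2, a kinase downstream of ATM, was at 866, 1973 and 1131 (1.19 and -0.80). Mdm4 was at 10943, 19323 and 13138 (0.82 and -0.56).

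Other known p53 targets were mostly higher with etoposide: 10 of 12 were at least 2-fold higher in LE than in LPS, where 14.7% of all genes were. None was at least 2-fold lower, against 6.16% of all genes, and the median log2 ratio was 2.80. Between LEKU and LE, 1 of the 12 passed 2-fold, Eda2r (-1.20), where 6.81% of all genes did, and the median was -0.51. Plk2 went from 262 in LPS to 9881 in LE and 6049 in LEKU (5.23 and -0.71), Ccng1 from 5684 to 51026 and 30565 (3.17 and -0.74), and Phlda3 from 108 to 3201 and 2995 (4.89 and -0.10). Cdkn1a, at 5.03 and -0.32, lay inside the range of these genes in both steps.

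Among 13 regulators of CDK inhibitor transcription, 2 were at least 2-fold higher in LE than in LPS and 2 lower, where 14.7% and 6.16% of all genes were. The higher count was 4 with library totals, where 2565 of all 15507 genes were higher. It was also 4 after quantile normalization, where 1643 of all genes were. The median was -0.35, and none passed between LEKU and LE, where 6.81% of all genes did. Klf4, a zinc finger factor known to activate Cdkn1a, was at 19.2 in LPS, 138 in LE and 220 in LEKU (2.84 and 0.67). Kdm6b, which removes methyl groups from histone H3 lysine 27, was at 726, 3047 and 3650 (2.07 and 0.26). Ets1 was at 8882, 3235 and 3030 (-1.46 and -0.09). Foxo4, one of the factors that activate Cdkn1b, was at 648, 449 and 707 (-0.53 and 0.66). Of the other FOXO genes of the list, Foxo3 went the other way in both steps (0.94 and -0.61) and Foxo1 was lower in both (-0.87 and -0.26).

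**Figure D5:**
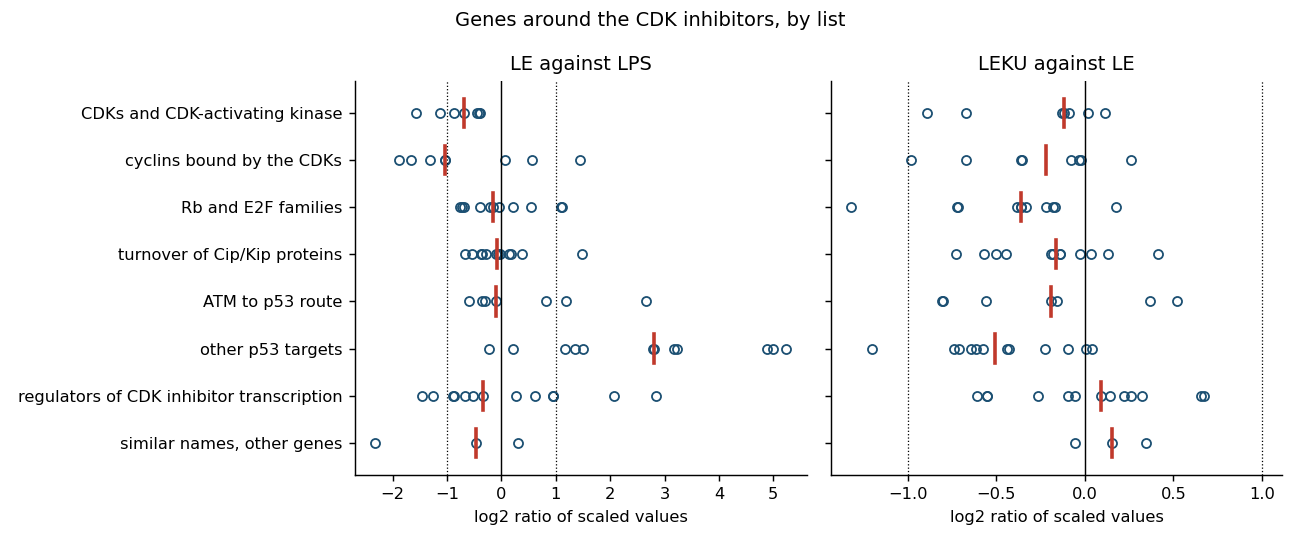
Open circles are the log2 ratios of scaled levels (x axis, with its own range in each panel) of the genes in each pathway list (y axis), in LE against LPS and in LEKU against LE. Red marks are the medians of the lists, and dotted lines stand at 2-fold. Of the 12 other p53 targets, 10 lie beyond the line in the first panel, while in the other panel only E2f7 (-1.32) and Eda2r (-1.20) lie beyond it.

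Genes with like names were kept apart. Cdkn3, which encodes a phosphatase that acts on CDK2, was at 332 in LPS, 66.7 in LE and 64.2 in LEKU (-2.32 for LE against LPS and -0.06 for LEKU against LE). Cdkn2aip, whose product binds p19ARF, was at 558, 688 and 874, and Cdkn2aipnl was at 2175, 1580 and 1756, and neither passed 2-fold in these comparisons.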

How the data were processed

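Splenic B cells were isolated with a magnetic kit, and libraries were made with a stranded mRNA kit and sequenced as 100 base single-end reads. Per the labels and the submitters' processing notes, the authors trimmed reads with Trim Galore and cutadapt 1.2.1, aligned them with TopHat2 2.0.12 to GRCm38, counted reads per gene with HTSeq (Ensembl 78) and fitted DESeq2 1.6.3. The strand setting of the counting is not given in the sources used here. The authors deposited normalized counts, a signal that is never negative, with 1 column per library. Any 2 columns of a condition kept 1 ratio over all genes (largest log2 spread 2.68e-14), so each value was a fitted mean times a size factor. The planned limma test was therefore not run, and neither a count test nor a check of pairing was possible. The table's columns for the 3 comparisons of the authors (log2 fold changes, standard errors, Wald statistics and p-values) were not used.

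Values were divided by median-of-ratios size factors (0.818 to 1.32) over genes with at least 10 in at least 4 libraries, with no pseudocount. Intervals are exact Clopper-Pearson (95%) on rounded counts summed over the 4 libraries of each condition. Lengths are unions of GENCODE M21 exons, and promoters are those of RefSeq. Computations ran in Python 3.11.15 (pandas 2.3.3, numpy 2.4.6, with scipy 1.17.1 for intervals and matplotlib 3.10.9 for plots). The scaling was tested on simulated data without noise, with few changed genes, raised and lowered in equal number in LE. That test cannot show how the scaling fares with the 2273 higher and 955 lower genes counted between LE and LPS. Members, lists, markers and the 2-fold count were chosen with earlier results of these data known. Named were the 7 members, in each list the 3 genes with the largest absolute log2 ratio of LE to LPS and the 2 with the largest of LEKU to LE, and the 3 genes nearest to each member. Genes outside this rule, such as Rps27l, Bank1, Foxo1 and Foxo3, were named after their values were seen. Alternatives were other scalings, pseudocounts, filters, folds and lengths, and leaving out each library.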

Additional observations from a re-analysis of the deposited data

How the results depend on the processing

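No sign of a difference of at least 2-fold in a CDK inhibitor gene turned under any of the alternatives. The filters and lengths cannot change a member's ratio, and a pseudocount cannot turn its sign. Every other scaling but quantile normalization moves all ratios of a comparison by the same amount, too small here to turn a 2-fold difference. Only quantile normalization could thus have turned such a sign. With a 1.5-fold count, 5997 of all genes passed between LE and LPS, 2987 between LEKU and LE and 5694 between LEKU and LPS, and 5 of the 7 CDK inhibitor genes between LEKU and LE. For LEKU against LE the count of all genes at 2-fold was 1663 with no filter, 619 with at least 50 in at least 4 libraries, and 553 with at least 10 in every library, an alternative chosen after seeing the data. These filters change the number of genes tested. With the longest transcript as the length, Cdkn1a made up 82.5% of the summed levels in LE and 78.3% in LEKU. With library totals the log2 ratio of the summed INK4 levels was 0.14 between LE and LPS. That scaling moved the median log2 ratio of all genes to 0.12 between LE and LPS and to 0.20 between LEKU and LPS, and the members moved with it. Cdkn1c was below 2-fold after quantile normalization (0.31 in LE and 0.19 in LEKU, against LPS) and with a pseudocount of 5. Leaving out 1 library moved no ratio of a CDK inhibitor gene beyond its counting interval, which the proportional columns of a condition bring about by construction. No paired analysis was possible because the columns hold fitted means, so that the results come from no test. The counting intervals, and so the limits set by depth, were widest for Cdkn1c.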
